A study of Mus musculus with 3 samples.

Results

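Inmt and Gdf10 fibroblasts are stromal cells of the mouse gallbladder in which Inmt, Gdf10 and Igfbp3 lead over the marker genes of other fibroblasts. They were chosen from unique molecular identifier (UMI) counts, that is, counts of distinct captured RNA molecules per barcode. A barcode, the tag of 1 droplet and usually 1 cell, entered the fibroblast gate by 6 conditions. It had 300 or more genes and at most 20% mitochondrial UMIs. Col1a1, Col1a2, Col3a1 and Dcn together reached 5000 CPM, a gene's share of the UMIs scaled to 1000000, and exceeded Acta2, Tagln and Myh11. It held no UMI of the leukocyte gene Ptprc and stayed below 6000 CPM of Epcam, Krt8, Krt18 and Krt19. Each barcode in the gate was then scored by the UMI sums of 4 gene trios, which were Inmt, Gdf10 and Igfbp3, then Pi16, Mfap5 and Clec3b, then Sfrp1, Smoc2 and Cilp, and then Ccl11, Postn and Col6a1. A barcode whose sum of Inmt, Gdf10 and Igfbp3 was 3 or more and strictly the highest of the 4 is called here an Inmt trio fibroblast. There were 1250 such barcodes among 5500 in the fibroblast gate, 26017 that passed the gene and mitochondrial limits and 27700 in all. The Pi16 trio led in 482 barcodes, the Sfrp1 trio in 1153 and the Ccl11 trio in 1897, and 718 had no leading trio.

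The cells came from male C57BL/6 mice in 3 groups, which the labels describe as gavaged with nanoplastics for 3 weeks, gavaged with nanoplastics for 6 weeks, or gavaged with vehicle for 6 weeks as the control. Each group was 1 droplet-based 3′ library from 10 gallbladders pooled after trypsin digestion, so animals cannot be told apart and no group has a replicate. The deposited matrix numbers the libraries 1, 2 and 3 without naming their group, and they are therefore treated as unassigned samples. Exposed and control gallbladders were not compared, and no p-value is given anywhere.

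Inmt encodes indolethylamine N-methyltransferase, an enzyme that transfers methyl groups to small amines. Gdf10 is a secreted ligand of the TGF-beta superfamily, Igfbp3 a secreted carrier of insulin-like growth factors, and Ptn, pleiotrophin, a secreted heparin-binding growth factor. Fibroblasts of the organ wall make collagen and elastic fibres, and subsets of them differ in the signals they send to epithelium, nerves and vessels. Such subsets are usually told apart by combinations of secreted factors, enzymes and transcription factors rather than by a single gene.

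Promoter sequence is shown for the 3 genes that chose the members and for Ptn, because these genes are read together in the same barcodes. The RefSeq table of build GRCm38.p6 held all 4. Each stretch is 190 bases, from 250 to 61 bases before the annotated start, written in the direction of the gene, with capitals for matches to the motifs searched. The gene positions given further below come from another annotation, GENCODE M21, whose starts of Inmt and Ptn lie further upstream than those of RefSeq, so these stretches end nearer to them.
Inmt (chr6:55175051-55175240, minus strand): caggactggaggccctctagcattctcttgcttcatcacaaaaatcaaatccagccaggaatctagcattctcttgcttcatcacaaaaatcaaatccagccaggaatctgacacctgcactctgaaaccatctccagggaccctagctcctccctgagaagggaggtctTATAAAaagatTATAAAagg
Gdf10 (chr14:33923337-33923526, plus strand): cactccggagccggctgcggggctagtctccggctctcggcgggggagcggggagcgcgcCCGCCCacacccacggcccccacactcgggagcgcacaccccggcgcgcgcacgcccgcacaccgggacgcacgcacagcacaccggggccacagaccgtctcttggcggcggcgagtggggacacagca
Igfbp3 (chr11:7213984-7214173, minus strand): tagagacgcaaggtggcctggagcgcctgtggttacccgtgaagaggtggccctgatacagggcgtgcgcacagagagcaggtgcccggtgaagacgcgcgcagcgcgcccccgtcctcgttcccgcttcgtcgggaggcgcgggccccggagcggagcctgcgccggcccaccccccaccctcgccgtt
Ptn (chr6:36810240-36810429, minus strand): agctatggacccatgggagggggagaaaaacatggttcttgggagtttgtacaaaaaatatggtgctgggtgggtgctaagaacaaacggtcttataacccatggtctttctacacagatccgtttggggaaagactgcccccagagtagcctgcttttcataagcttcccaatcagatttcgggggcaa

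The motifs searched on both strands were TATAAA, the GC box GGGCGG, the E-box CAGCTG and the GATA motif AGATAA. The Inmt stretch held TATAAA 2 times and was 45.3% G and C. The Gdf10 stretch held 1 GC box, shown as its reverse complement, and was 77.4% G and C. No match lay in the Igfbp3 stretch, at 72.6% G and C, or in the Ptn stretch, at 47.9%. Among 32851 promoter stretches of the same length, 8.73% held TATAAA, 22.8% the GC box, 9.81% the E-box and 8.06% the GATA motif. The stretches thus differ in base composition and share no searched motif, and a match is a description only.

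The Inmt trio fibroblasts were unevenly spread over the libraries. They were 39 of 706 fibroblast barcodes in library 1, which is 5.52% (exact Clopper-Pearson 95% interval 3.96 to 7.47%). In library 2 they were 64 of 1097, or 5.83% (4.52 to 7.39%). In library 3 they were 1147 of 3697, or 31.0% (29.5 to 32.5%). The pooled share of 22.7% (21.6 to 23.9%) was 5.71% without library 3. Library 3 held 91.8% of all members, and its interval lies far above those of the other libraries. The Ccl11 trio took the opposite place, with 64.9%, 69.7% and 18.2% of fibroblast barcodes in libraries 1, 2 and 3. Intervals here and below cover counting error only, not the spread between animals or dissections.

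**Figure D1:**
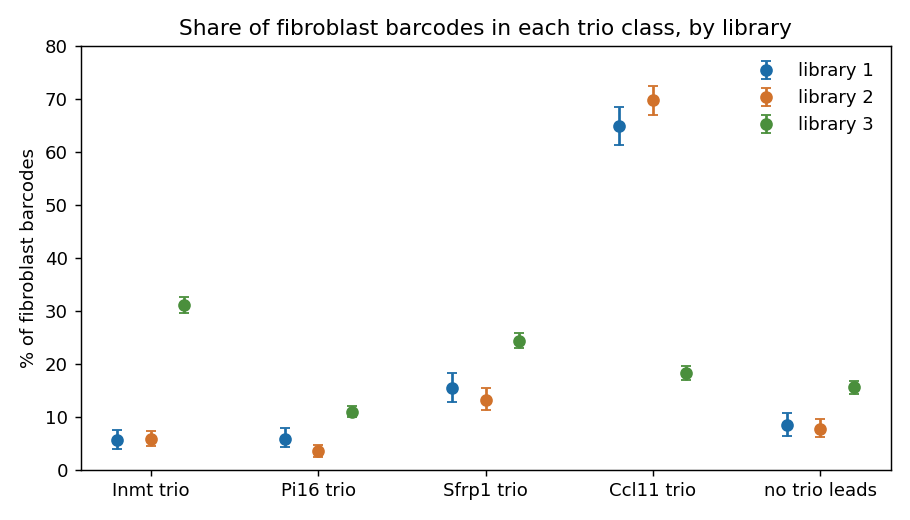
Share of fibroblast barcodes (%) led by each trio, or by none, in libraries 1 to 3, with exact binomial 95% intervals as bars. The Inmt trio stands at 31.0% in library 3, against 5.52% and 5.83% in libraries 1 and 2, while the Ccl11 trio is lowest in library 3.

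Members were shallower in library 3, and the split of the shares was as wide at equal depth. They had a median of 5418 UMIs in library 1, 3013.5 in library 2 and 2143 in library 3, with 2001, 1388 and 1239 genes. When every barcode was thinned to 2000 UMIs and the rule applied again, 726 members were left, 657 of them among those chosen at full depth. Their share of the gate was then 6.40% in library 1 (40 of 625), 5.81% in library 2 (54 of 929) and 30.6% in library 3 (632 of 2065). Scrublet, a doublet caller, gave 37 members (2.96%) a score above 0.25, with 0, 2 and 35 of them in libraries 1, 2 and 3, and none was removed. Across libraries 54 barcode sequences recurred, 4 members carried one of them, and none was a member in more than 1 library. Whole libraries held 72943584, 121349261 and 58172348 UMIs over 5643, 11827 and 10230 barcodes. The members summed to 233312, 215375 and 2795066 UMIs, so values for libraries 1 and 2 rest on far fewer molecules.

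The values that chose the members are given as a description. The summed UMIs of Inmt, Gdf10 and Igfbp3 ran from 3 to 112 per member with a median of 13, and the lead over the next trio had a median of 7 UMIs. Just inside the limit, 48 members had a sum of 3 and 65 a sum of 4. Just outside it, 40 barcodes had a strictly highest sum of 2, and 101 had a sum of 3 or more that tied with another trio. A further 1524 fibroblast barcodes reached 3 UMIs of these genes but had more of another trio. The 3 genes are therefore not restricted to the members, which are the barcodes where they lead.

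Inmt (ENSMUSG00000003477, chromosome 6, 55170626 to 55175043, GRCm38) was the most widely detected of the 3 genes, with a UMI in 90.0% of members. Its level in members of libraries 1, 2 and 3 was 1483, 2057 and 2109 CPM, against 421, 520 and 444 CPM in the pooled barcodes of the other 3 trios. Levels here are CPM of UMIs summed over the barcodes of a class. Inmt was thus the steadiest of the 3 genes across libraries. It was also present in the Pi16, Sfrp1 and Ccl11 trio barcodes, at 559, 402 and 459 CPM over all libraries.

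Gdf10 (ENSMUSG00000021943, chromosome 14, 33923587 to 33937983) had a UMI in 68.4% of members. It stood at 441, 186 and 1134 CPM in members of libraries 1, 2 and 3, against 32.8, 27.7 and 175 CPM in the other trios. Igfbp3 (ENSMUSG00000020427, chromosome 11, 7206086 to 7213923) had a UMI in 79.4% of members and stood at 1312, 724 and 3821 CPM, against 66.4, 65.3 and 365 CPM. Both genes were highest in library 3 in members and in the other trios alike. Among the other trios they were highest in Sfrp1 trio barcodes, with Gdf10 at 265 and Igfbp3 at 639 CPM over all libraries, and lowest in Ccl11 trio barcodes, at 18.4 and 37.8 CPM. T cell barcodes also had their highest levels of both in library 3, at 83.6 and 167 CPM (107 barcodes). The Ccl11 trio there, at 40.9 and 79.2 CPM, and Igfbp3 in the Pi16 trio there, at 160 CPM, did not exceed these. Such levels are not told apart from background of free RNA.

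Ptn (ENSMUSG00000029838, chromosome 6, 36714929 to 36810220) was no part of the rule. Its level in members was 1029 CPM in library 1 (exact Poisson 95% interval 903 to 1167), 423 CPM in library 2 (340 to 519) and 611 CPM in library 3 (582 to 641). In the other trios it was 184, 126 and 158 CPM. Every member value lay above every value of the pooled trios, by 3.27 to 5.47 times within a library. The Pi16 trio alone was nearer, at 441, 298 and 113 CPM, and the lowest fold over it was 1.41, in library 2. These ratios, like all folds below, are of CPM plus an offset of 5, which understates the change of low genes. Ptn had a UMI in 47.0% of members, against 18.7% of Pi16, 25.4% of Sfrp1 and 28.2% of Ccl11 trio barcodes.

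**Figure D2:**
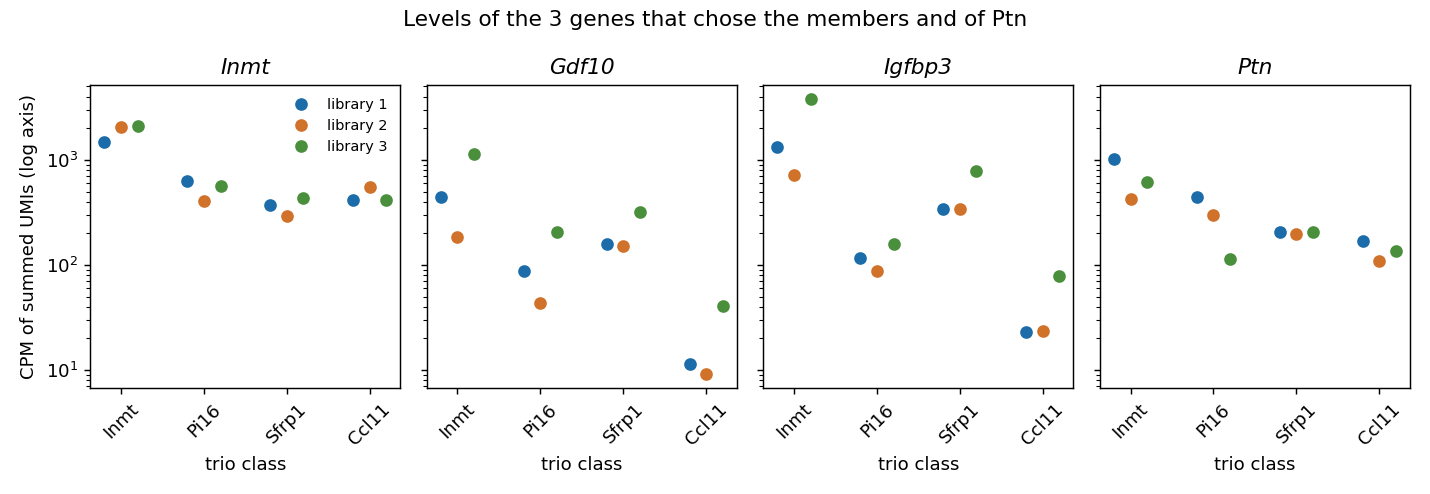
Level (CPM of summed UMIs, log axis) of Inmt, Gdf10, Igfbp3 and Ptn in the barcodes of each trio class, 1 point per library. Inmt is near 2000 CPM or somewhat below in all 3 libraries of the Inmt trio, whereas Gdf10 and Igfbp3 are highest in library 3 in every class.

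At equal depth the contrast in detection was similar. Inmt helped choose the members, so its contrast is set by the rule and is a description only, whereas Ptn was no part of the rule. Of 718 members thinned to 2000 UMIs, with 532 shallower members left out, 91.2% had a UMI of Inmt, against 48.8%, 42.9% and 51.97% of Pi16, Sfrp1 and Ccl11 trio barcodes. Ptn was found in 52.2% of these members, against 18.1%, 20.7% and 17.7%. Epithelial barcodes, which should lack Inmt, had a UMI of it in 0.649% after thinning and T cell barcodes in 2.44%, at median depths before thinning of 13729.5 and 2599 UMIs. In T cell barcodes of library 3 the Inmt share was 14.6% (48 barcodes), and shares up to that size are read as background of free RNA there. The pooled shares in all 4 fibroblast classes lay above it.

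The genes that chose the members were not all present in each of them, which describes the rule and does not test the label. All 3 trio genes occurred together in 633 members (50.6%), 457 members (36.6%) had 2 of them and 160 (12.8%) had 1. The share with all 3 was 35.9% in library 1, 15.6% in library 2 and 53.1% in library 3. In library 2 Gdf10 had a UMI in 22 of 64 members and in library 1 in 20 of 39, so Gdf10 does not mark all members there. Igfbp3 was the leading gene of 583 members (46.6%), Inmt of 441 (35.3%) and Gdf10 of 153 (12.2%). Inmt led in 61.5% and 75% of members of libraries 1 and 2 but in 32.2% of those of library 3. The runner-up trio was most often Ccl11 in libraries 1 and 2, in 48.7% and 64.1% of members, and the Sfrp1 trio in library 3, in 32.4%.

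Members carried the general fibroblast genes, and markers of fat, T cells and glia were near 0. Pdgfra, a receptor of stromal fibroblasts, stood at 789, 850 and 1023 CPM in members of libraries 1, 2 and 3, against 603, 610 and 668 CPM in the other trios. Adipocyte markers summed to 0.925 CPM, with Adipoq, Cidec and Lep at 0 UMIs, and T cell markers to 3.08 CPM, with Cd3d at 0. The gate left out barcodes with Ptprc, so sums of leukocyte markers are partly set by it. Schwann and glia markers summed to 18.8 CPM, with Fabp7 at 0. Blood endothelial markers, 6 of 8 present, summed to 201, 139 and 229 CPM in members, against 33.3, 29.5 and 174 CPM in the other trios. Mesothelial markers, 5 of 7 present, summed to 94.3, 306 and 208 CPM in members, against 243, 333 and 1390 CPM. The summed endothelial level was thus higher in members in each library, and the mesothelial one lower, with the smallest gap in library 2. Barcodes with 2 or more endothelial UMIs were 5.68% of members, against 3.94%, 11.1% and 4.59% of Pi16, Sfrp1 and Ccl11 trio barcodes. Hepatic stellate and portal fibroblast genes, 6 of 7 present, summed to 3411 CPM in members, against 1961, 3120 and 2192 CPM in the Pi16, Sfrp1 and Ccl11 trios. Pericyte markers summed to 538 CPM in members, against 275, 454 and 351 CPM, and epithelial markers to 666 CPM, against 922, 780.0 and 799.8 CPM. Neither list was near 0 in any of the 4 classes. Epcam, Krt8, Krt18 and Krt19 of the epithelial list were capped by the gate, which partly sets that sum. Lymphatic endothelial markers summed to 218 CPM in members, against 314, 278 and 303 CPM, and markers of interstitial cells of Cajal to 201 CPM, against 212, 112 and 221 CPM. Macrophage markers summed to 93.7 CPM in members, against 35.7, 47.7 and 38.4 CPM, and neutrophil, hepatocyte and B or plasma cell markers to 33.9, 48.4 and 39.2 CPM. Red blood cell genes summed to 100.2 CPM in members, against 9.61, 6.06 and 23.8 CPM. The sums from the hepatic stellate genes on pool the libraries, and some turned within a library. Macrophage markers were lower in members of library 2, at 27.9 against 46.3 CPM in the other trios. Pericyte markers were lower in members of library 1, at 304 against 328 CPM. Epithelial markers were higher in members of library 2, at 1221 against 989 CPM. The part of these transcripts in the differences below was not tested except where values without some of them are given. Xist had 0 UMIs in members and the Y-linked Ddx3y 1184, which fits the male label.

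Members were compared with the barcodes of the other 3 trios within each library, over 9288 genes that had at least 20 UMIs and 10 CPM on either side, the rule's genes left out. The contrast rests on barcodes sorted by these same counts, so it is a description without a test. Past 2-fold in every library, 40 genes were higher in members, which is 0.431% of the genes measured, and 40 were lower, also 0.431%. At any size, 16.8% of genes were above and 21% below in every library, and the median log2 ratio over all genes was -0.03. Counts of list members above or below in every library are to be set beside these shares. The Ccl11 trio supplied 83.6%, 84.9% and 45.4% of the UMIs of the comparison barcodes in libraries 1, 2 and 3. Against the Ccl11 trio alone, 69 genes (0.743%) were higher and 64 (0.689%) lower in every library. Against the Sfrp1 trio these were 73 (0.786%) and 82 (0.883%), and against the Pi16 trio 67 (0.721%) and 98 (1.06%). Of the 40 higher genes, 36 were also past 2-fold in every library against the Ccl11 trio alone, 22 against the Sfrp1 trio and 12 against the Pi16 trio. Of the 40 lower genes these counts were 33, 19 and 11. Without library 1, 2 or 3, where fewer libraries had to pass, 56, 74 and 86 genes were higher and 67, 87 and 137 lower. Among the genes given below with their levels, the direction turned in at least 1 library against the Pi16 trio alone for Penk, Ntrk2, Lsamp, Gata2, Prrx1, Maf, Slit2, Cyp2e1, Tsc22d3, Klf9, Bdnf, Bmp7, Tnc, Vcan and H19. Against the Sfrp1 trio alone it turned for Maf, Fgf10, Fmo2, Cxcl12, Klf9, Bmp7, Tnc, Vcan, H19 and S100a4.

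**Figure D3:**
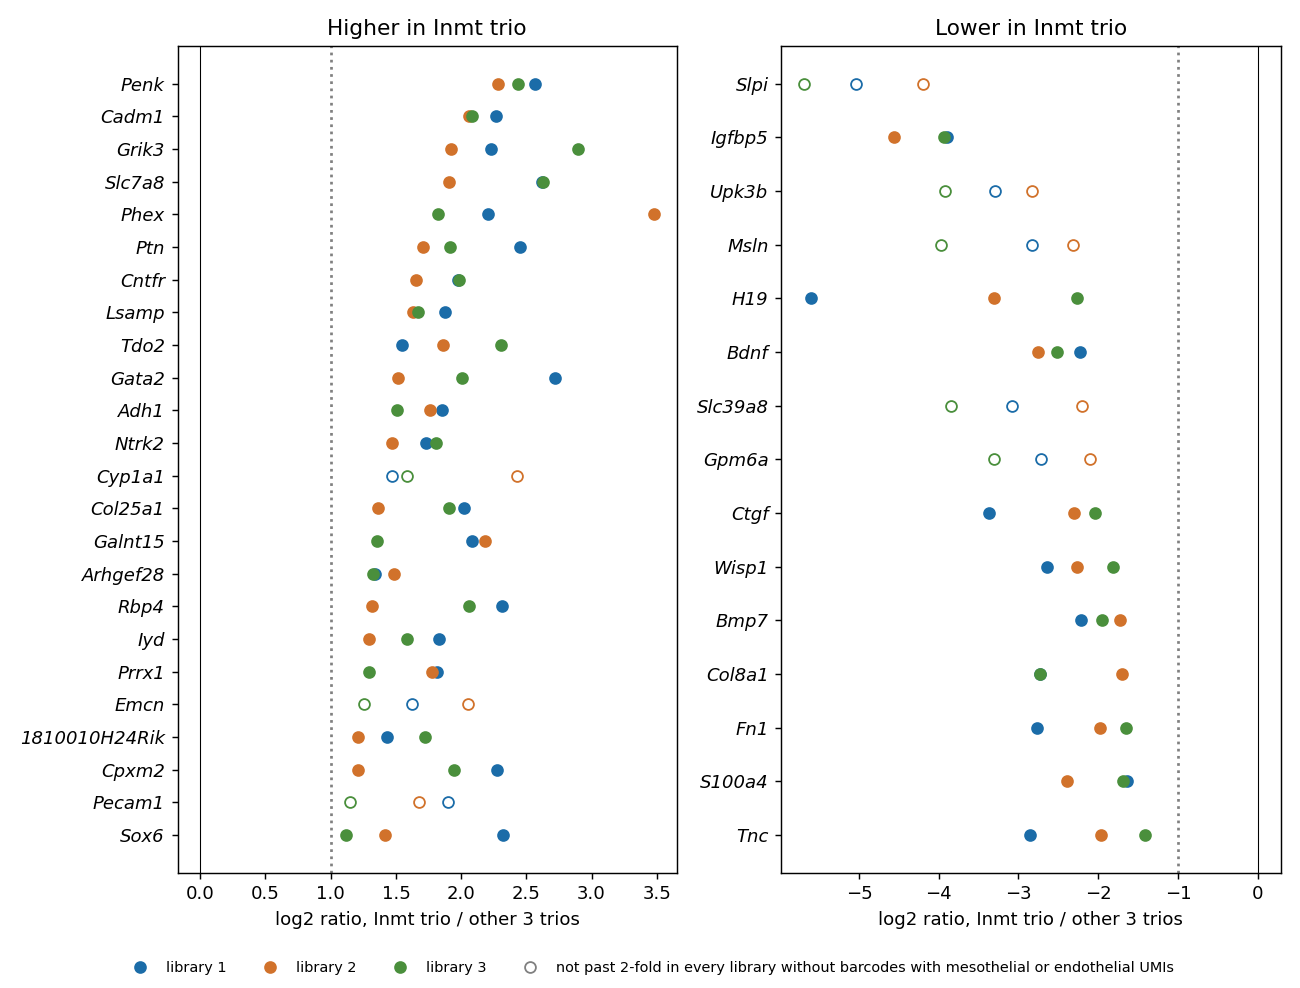
Log2 ratio of Inmt trio fibroblasts to the other 3 trios (CPM plus 5) for 24 of the 25 genes with the highest and the 15 with the lowest ratios by the naming rule, 1 point per library. Open points mark genes not past 2-fold in every library once barcodes with mesothelial or endothelial UMIs are left out, among them Slpi, Msln, Upk3b, Emcn and Pecam1.

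Penk (ENSMUSG00000045573, chromosome 4, 4133531 to 4138819), the precursor of enkephalin peptides, was at 244, 167 and 849 CPM in members of libraries 1, 2 and 3, against 37.0, 30.5 and 153 CPM in the other trios. The fold was 4.85 to 5.94 over libraries, and every member value lay above every value of the pooled other trios, by little between libraries 2 and 3. The Pi16 trio also carried Penk, at 310 CPM over all libraries, and the fold of members over it was 0.604 to 2.46. Against the Ccl11 trio, at 17.3 CPM, it was 11.9 or more in each library. At equal depth Penk had a UMI in 63.8% of members, against 36.9% of Pi16, 25.4% of Sfrp1 and 3.39% of Ccl11 trio barcodes. These shares pool the libraries, and the gap to the Pi16 trio rests on library 3, at 69.0% against 36.9%. It was 30.3% of members against 27.6% of Pi16 trio barcodes in library 1. In library 2 the order turned, at 23.6% against 46.4%.

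Ntrk2 (ENSMUSG00000055254, chromosome 13, 58806569 to 59133970), the receptor of brain-derived neurotrophic factor, was at 334, 218 and 459 CPM in members, against 97.1, 75.6 and 127 CPM in the other trios. All 3 member values exceeded all 3 of the pooled trios, by 2.77 to 3.50 times within libraries. In library 2 the Pi16 trio alone stood at 236 CPM, above the members, and at equal depth 27.3% of members and 28.6% of Pi16 trio barcodes there had a UMI. Bdnf itself was on the lower side, at 25.7, 13.9 and 24.7 CPM in members, against 139, 122 and 165 CPM. Receptor and ligand thus ran in opposite directions in the same comparison. Cntfr, the ciliary neurotrophic factor receptor, was at 77.1, 51.1 and 86.6 CPM in members, against 15.9, 12.8 and 18.1 CPM. Of 19 measured nerve and axon guidance genes, 4 were above in every library (Slit2, Slit3, Nrp1 and Ntrk2) and 7 below. That is 21.1% and 36.8%, beside 16.8% and 21% of all genes. Slit2, a secreted guidance cue, was at 193, 102 and 249 CPM in members, against 81.1, 68.7 and 111 CPM.

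Lsamp and Cadm1 are adhesion molecules of the immunoglobulin superfamily. Lsamp was at 72.9, 41.8 and 115 CPM in members, against 16.2, 10.1 and 32.7 CPM. Cadm1 was at 68.6, 46.4 and 135 CPM, against 10.3, 7.33 and 28.0 CPM, a fold of 4.17 to 4.81. Cadm1 is not peculiar to these cells, since epithelial barcodes of libraries 1, 2 and 3 had 69.8, 56.4 and 72.5 CPM. At equal depth it had a UMI in 12.9%, 10.2% and 13.2% of epithelial barcodes, against 12.1%, 7.27% and 24.6% of members. Members thus exceeded epithelial barcodes in library 3 only. Grik3, a glutamate receptor subunit, was at 21.4, 13.9 and 50.8 CPM in members, against 0.643, 0 and 2.48 CPM (a count of 0 allows up to 0.687 CPM there), and 9.28% of members had a UMI of it. Phex, a membrane endopeptidase, was at 51.4, 78.9 and 51.5 CPM, against 7.24, 2.52 and 10.96 CPM. Npr3, the clearance receptor of natriuretic peptides, was at 129, 41.8 and 197 CPM, against 40.5, 16.7 and 30.8 CPM, and its lowest fold was 2.15.

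Tdo2 (ENSMUSG00000028011, chromosome 3, 81957090 to 81976202), which opens the tryptophan ring, was at 60.01, 69.6 and 87.7 CPM in members, against 17.2, 15.6 and 13.7 CPM. It was 1 of 7 genes past 2-fold in every library against each of the other trios taken singly, with Col25a1, Grik3, Iyd, Slc7a8, Emcn and Gpihbp1. Slc7a8, an amino acid transporter, was at 38.6, 23.2 and 79.1 CPM in members, against 2.09, 2.52 and 8.62 CPM. Iyd, an iodotyrosine deiodinase, was at 129, 74.3 and 67.3 CPM, against 32.5, 27.3 and 19.1 CPM. Emcn and Gpihbp1 are endothelial genes and are taken up with the endothelial transcripts below.

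The enzymes of small-molecule methylation and xenobiotic handling, the group to which Inmt belongs, were followed as a list without Inmt. Of its 27 measured members, 10 were above the other trios in every library and 1, Gstp1, below, beside 16.8% and 21% of all genes. The median log2 ratio of the list was 0.25, beside -0.03 for all genes. Fmo2, a flavin monooxygenase, was at 862, 878 and 1604 CPM in members, against 425, 351 and 1243 CPM, and its fold over the Sfrp1 trio alone was 0.722 to 1.09. Cyp2e1, a cytochrome P450, was at 591, 163 and 604 CPM, against 91.5, 76.7 and 117 CPM, a fold of 2.05 to 6.18. In library 2 the Pi16 trio alone stood above the members, at 175 CPM. Its smallest fold, in library 2, was 1.93 once barcodes with mesothelial or endothelial UMIs were left out. With the other 3 trios weighted equally the list had 8 members above and 3 below. Against each trio singly it had 2 above and 1 below, that is, above or below all 3 trios in every library, which held for 5.25% and 5.04% of all genes.

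Retinoid genes were mixed. Adh1, an alcohol dehydrogenase that can oxidise retinol, was at 85.7, 88.2 and 166 CPM in members, against 20.1, 22.4 and 54.9 CPM. Rbp4, the secreted retinol carrier, was at 261, 153 and 102 CPM, against 48.6, 58.6 and 20.6 CPM, and was highest in library 1 in members. Aldh1a2 and Rdh10, which make retinoic acid and retinal, were below the pooled other trios in every library. Singly, the fold of Rdh10 was 0.528 to 1.51 over the Sfrp1 trio and 0.606 to 1.01 over the Pi16 trio. Lipid genes had 6 of 19 above and 1 below in every library, with a median log2 ratio of -0.046. With the other trios weighted equally 3 were above and 3 below, and with other-cell barcodes left out, as described below, 6 and 4. Apoe, an apolipoprotein, was at 3999, 7577 and 1636 CPM in members, against 2079, 4218 and 725 CPM. Both sides had their peak in library 2.

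Transcription factors of stroma gave 9 of 32 measured members above and 7 below in every library, and 2 were past 2-fold. That is 28.1% and 21.9%, beside 16.8% and 21% of all genes, and 6.25% past 2-fold higher, beside 0.431%. Gata2, a zinc finger factor, was at 42.9, 13.9 and 33.3 CPM in members, against 2.25, 1.60 and 4.53 CPM. Prrx1, a homeobox factor of limb and connective tissue, was at 116, 74.3 and 178 CPM, against 29.3, 18.1 and 69.5 CPM. Prrx1 was nearer in the Pi16 trio, over which the members' fold was 0.582 to 1.15. With the other 3 trios weighted equally, neither Gata2 nor Prrx1 was past 2-fold in every library, and the list had 9 above and 7 below. Against each trio singly 2 of the list were above and 1 below in every library, beside 5.25% and 5.04% of all genes. Fibroblast subset genes of other mouse organs gave 4 of 21 above and 8 below (19.0% and 38.1%). Among them Sox6, a factor of the SOX family, was at 60.01, 27.9 and 71.6 CPM, against 8.04, 7.33 and 30.2 CPM. Maf, a basic leucine zipper factor, was at 64.3, 46.4 and 288 CPM, against 29.4, 15.6 and 127 CPM, just past 2-fold at its lowest.

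The heparin-binding growth factors, the group of Ptn, showed no common direction, with 5 of 24 above and 7 below in every library. That is 20.8% and 29.2%, beside 16.8% and 21% of all genes. Fgf7 and Fgf10, which signal to epithelium, were among those above. Fgf7 was at 42.9, 60.4 and 53.0 CPM in members, against 25.2, 21.8 and 26.3 CPM, and Fgf10 at 8.57, 18.6 and 61.9 CPM, against 5.15, 3.44 and 13.6 CPM. The heparan sulfate carriers Sdc1, Sdc2, Sdc3 and Sdc4 were all below. The ligands and antagonists of the BMP and TGF-beta pathways, the superfamily of Gdf10, gave 2 of 20 above and 5 below. Receptors and targets of these pathways had 3 above (Id1, Id2 and Id4) and 3 below of 22. The shares above and below were 10% and 25% for the ligands and antagonists, and 13.6% each for the receptors and targets. Sostdc1, a BMP and Wnt antagonist, was at 21.4, 13.9 and 12.5 CPM in members, against 0.161, 0.229 and 0.876 CPM. Bmp7 was at 21.4, 37.1 and 2.50 CPM, against 118, 135 and 24.1 CPM, whereas Bmp4 was close on both sides, at 219, 181 and 291 CPM against 224, 173 and 265 CPM.

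Igfbp5 (ENSMUSG00000026185, chromosome 1, 72857932 to 72874884), another carrier of insulin-like growth factors, was lower in members. It was at 30.0, 13.9 and 119 CPM in members, against 517, 443 and 1890 CPM in the other trios. The member value was 0.0422 to 0.067 times that of the other trios, and it was below 0.5 times against each trio singly in every library. With barcodes thinned to 2000 UMIs the median log2 ratio was -2.96, beside -3.93 at full depth. With mesothelial and endothelial barcodes left out, as described below, the log2 ratio ran from -4.14 to -1.81 over libraries. With all barcodes it ran from -4.57 to -3.90, so the size of the gap depends on these barcodes. Detection differed less than level. Igfbp5 had a UMI in 16.3% of members, against 29.5% of Pi16, 16.0% of Sfrp1 and 27.1% of Ccl11 trio barcodes. Of the 11 measured genes of the insulin-like growth factor system, 2 were above (Igf1r and Insr) and 4 below in every library (Igf1, Igfbp2, Igfbp5 and Pappa).

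Matrix genes lay mostly on the lower side. Fn1, which encodes fibronectin, was at 129, 176 and 367 CPM in members, against 903, 708 and 1158 CPM, or 0.147 to 0.319 times. Fn1 was past 2-fold lower against each trio singly. Of 12 measured fibrillar and associated collagens outside the rule, 0 were above and 8 below in every library, and their median log2 ratio was -0.82. Col6a1, of the same collagen family as Col6a2 and Col6a3 in this list, and Postn helped choose the Ccl11 trio. The part of that choice in this list and in the activated fibroblast list below was not tested. Col12a1 was at 129, 116 and 104 CPM in members, against 395, 269 and 280 CPM. Col8a1 had 0 UMIs in members of libraries 1 and 2, which allows up to 12.9 and 13.9 CPM, and 14.0 CPM in those of library 3, while the other trios had 28.1, 11.2 and 121 CPM. Against each trio singly, 0 collagens were above and 2 below in every library, beside 5.25% and 5.04% of all genes, so the direction of the remaining 6 depends on which trio is set against the members. Of 19 basement membrane genes 2 were above and 12 below, of 17 elastic fibre genes 2 and 9, and of 9 proteoglycans 1 and 4. Against each trio singly, 2 of the basement membrane genes, 2 of the elastic fibre genes and 0 of the proteoglycans were below in every library, and 0 of each list above. The fibroblast identity list, which shares collagens and Fn1 with these, had 3 above (Pdgfra, Vim and Cd34) and 7 below of 14. Matrix proteases and their inhibitors were mixed, with 6 above and 5 below of 19 (31.6% and 26.3%, beside 16.8% and 21% of all genes). Versican, Vcan, was at 150, 223 and 58.3 CPM, against 552, 511 and 160 CPM.

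Genes of activated and contractile fibroblasts gave 0 of 14 above and 11 below in every library, with a median log2 ratio of -0.59. Those past 2-fold were Tnc, Actg2, Timp1 and Ctgf. Ctgf, a matricellular target of TGF-beta and YAP signalling, was at 17.1, 18.6 and 300 CPM in members, against 224, 111 and 1251 CPM. Tnc, tenascin C, was at 4.29, 9.29 and 12.2 CPM, against 62.4, 50.6 and 40.9 CPM, but its fold over the Pi16 trio was 1.86 to 2.86. With the trios weighted equally the list again had 0 above and 11 below, and against each trio singly 0 above and 3 below, beside 5.25% and 5.04% of all genes. The smooth muscle marker list summed to 705 CPM in members, against 410, 1877 and 1503 CPM in the Pi16, Sfrp1 and Ccl11 trios. Acta2, Tagln and Myh11 of this list were bounded by the gate in every class. The part of the smooth muscle list in the result was not tested.

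H19, an imprinted long RNA, and S100a4, a calcium-binding protein of motile cells, were lower than in the Ccl11 trio but not than in every other trio. H19 was at 4.29, 46.4 and 9.66 CPM in members, against 445, 504 and 65.7 CPM, while its fold over the Pi16 trio was 1.01 to 10.3 and over the Sfrp1 trio 1.48 to 10.3. S100a4 was at 81.4, 51.1 and 30.1 CPM in members, against 265, 290 and 108 CPM, and its fold over the Sfrp1 trio was 0.883 to 1.30. Both genes were thus near or above the levels of at least 1 other trio.

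Some calls moved with transcripts of mesothelium and endothelium. Slpi, a protease inhibitor, was at 0, 9.29 and 35.1 CPM in members, against 158, 257 and 2063 CPM, where the 0 allows up to 12.9 CPM, although it had a UMI in 6.40% of members and in 6.91 to 8.07% of the barcodes of each other trio. Barcodes with 2 or more UMIs of Msln, Upk3b, Lrrn4 and Upk1b, or of Pecam1, Cdh5, Kdr and Emcn, were 50 of 1250 members (4%), against 20, 44 and 88 barcodes of the Pi16, Sfrp1 and Ccl11 trios. Without them 34 genes were higher, 28 of them from the 40, and 39 lower, 23 of them from the 40. The higher genes no longer called included Emcn, Pecam1, Egfl7, Ptprb, S1pr1 and Gpihbp1, which are endothelial, and the cytochrome P450 genes Cyp1a1 and Cyp2e1. The lower ones no longer called included Slpi, Msln, Upk3b, Lrrn4 and Gpm6a. Penk, Ptn, Ntrk2, Tdo2, Gata2, Adh1, Igfbp5, Fn1, Bdnf and Ctgf were still past 2-fold in every library. With the other trios weighted equally and all barcodes kept, Penk, Ntrk2 and Gata2 were no longer so, and the remaining genes named here were.

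**Figure D4:**
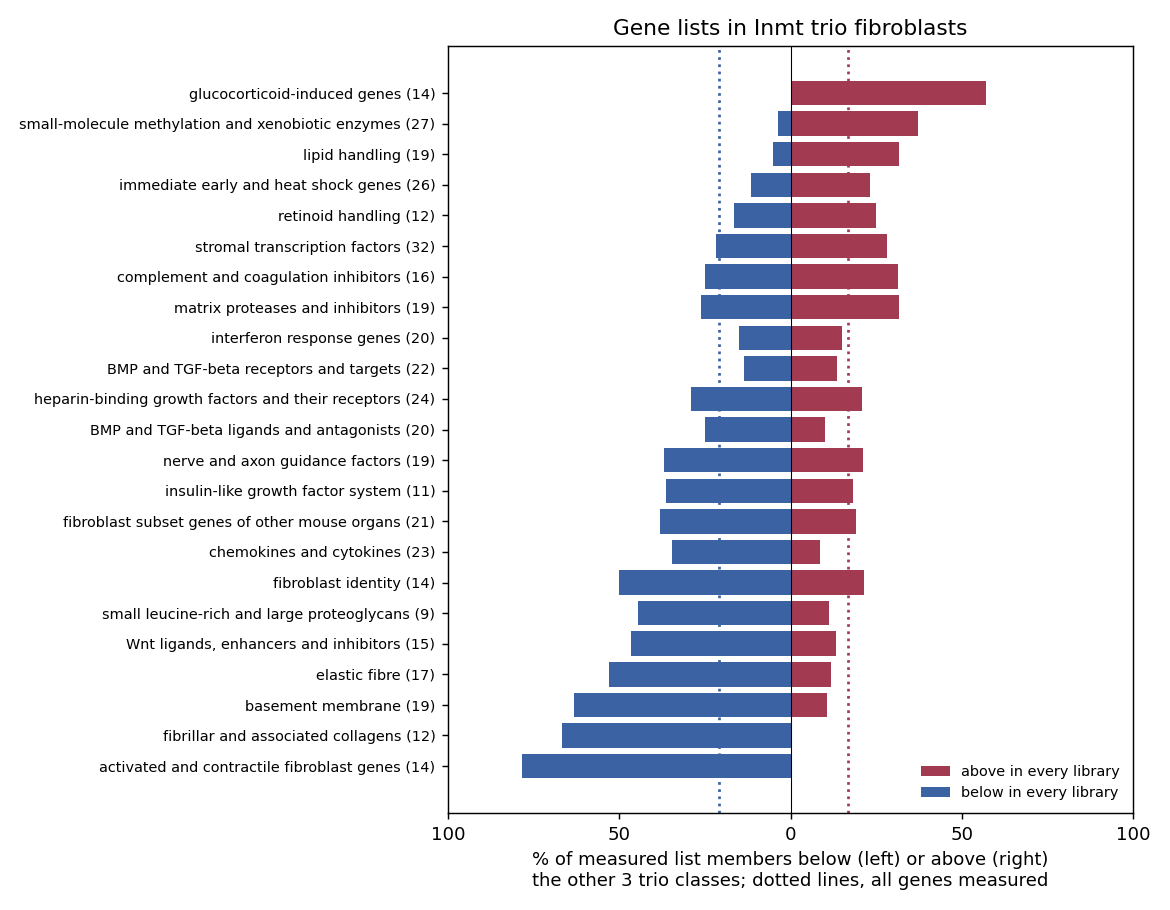
Percent of the measured members of each gene list (number in brackets) that were above (right) or below (left) the other 3 trios in every library, with dotted lines at the 16.8% and 21% of all genes. Lists of 9 or more measured genes are shown. Contractile, collagen and basement membrane genes lie to the left, and glucocorticoid-induced, xenobiotic and lipid genes to the right.

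Immune and stress-linked lists were less one-sided. Complement and coagulation inhibitors had 5 of 16 above and 4 below in every library (31.25% and 25%, beside 16.8% and 21% of all genes). Of 23 chemokines and cytokines 2 were above (Cxcl12 and Ccl19) and 8 below, or 8.70% and 34.8%. Cxcl12, a chemokine that retains leukocytes, was at 484, 469 and 838 CPM, against 252, 231 and 499 CPM, though over the Sfrp1 trio its lowest fold was 0.802. Wnt pathway genes gave 2 of 15 above (Rspo3 and Axin2) and 7 below, or 13.3% and 46.7%. Interferon genes gave 3 above and 3 below of 20, or 15% each. Only 2 of 12 proliferation genes were measured, of which Pcna was above in every library.

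Glucocorticoid-induced genes gave 8 of 14 above and 0 below in every library, with a median log2 ratio of 0.29. Tsc22d3, which encodes the leucine zipper GILZ, was at 257, 297 and 1130 CPM in members, against 157, 172 and 872 CPM. Klf9 was at 561, 395 and 909 CPM, against 418, 382 and 578 CPM. None of the list was past 2-fold, and against each trio singly 0 were above and 0 below in every library, beside 5.25% and 5.04% of all genes. With the trios weighted equally 5 were above and 1 below. With the mesothelial and endothelial barcodes left out the list had 6 above and 1 below. Immediate early and heat shock genes, which also answer to tissue dissociation, summed to 37975, 36782 and 68572 CPM in members of libraries 1, 2 and 3, against 45656, 41185 and 55494 CPM. Of these 26 genes 6 were above and 3 below, or 23.1% and 11.5%, beside 16.8% and 21% of all genes. Their part in the other differences was not tested.

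The members differed among themselves by which trio gene led. Within library 3, 369 members were led by Inmt, 146 by Gdf10 and 561 by Igfbp3, with medians of 2177, 2052 and 2216 UMIs. Past 2-fold over both other sets and with Poisson intervals apart, 4 of 8046 genes (0.0497%) were higher in the Inmt-led, 5 (0.0621%) in the Gdf10-led and 29 (0.36%) in the Igfbp3-led members. The sets summed to 903736, 342515 and 1400039 UMIs, so their intervals differ in width and the counts of genes are not comparable between sets. These sets were drawn from the same counts and are described without a test. Among Inmt-led members the ferritin receptor Scara5 was at 189 CPM (162 to 220), against 67.1 CPM in Gdf10-led and 63.6 CPM in Igfbp3-led members. Sfrp2 and Sfrp4, secreted Wnt inhibitors, were at 70.8 and 73.0 CPM in Inmt-led members, against 14.6 and 20.4 CPM in Gdf10-led and 11.4 and 16.4 CPM in Igfbp3-led members. These are summed levels and do not say how many Inmt-led members held the transcripts.

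Among the genes higher in Igfbp3-led members, Flt1, a receptor of vascular endothelial growth factor, was at 116 CPM (99.2 to 136) in them, against 25.4 CPM in Inmt-led and 23.4 CPM in Gdf10-led members. Ptprb was at 43.6 CPM in Igfbp3-led members, against 4.43 and 8.76 CPM, and Cd74, the invariant chain of class II molecules, at 328 CPM, against 77.5 and 81.8 CPM. Flt1 and Ptprb are also endothelial genes, and 43 of all 1250 members held 2 or more UMIs of Pecam1, Cdh5, Kdr and Emcn. The part of such barcodes in the Igfbp3-led values was not tested. Ncam1, an adhesion molecule, was at 67.9 CPM, against 11.1 and 2.92 CPM. Gdf10-led members differed mainly by haemoglobin. Hbb-bs was at 447 CPM in them, against 2.21 and 5.00 CPM in Inmt-led and Igfbp3-led members, and 5 members of all 1250 held 2 or more UMIs of red blood cell genes. Ptn was at 499 CPM in Inmt-led, 441 CPM in Gdf10-led and 738 CPM in Igfbp3-led members, and Penk at 756, 1142 and 813 CPM, so neither belonged to 1 set.

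Members also differed between libraries. Of 8923 genes, 1639 (18.4%) were past 2-fold between the highest and the lowest library with intervals apart, and 1127 of these were highest in library 3. A gene entered by its UMIs pooled over libraries, and library 3 supplied 2795066 of the 3243753 member UMIs. Genes high in library 3 thus entered more readily, and intervals there were narrower. The 1127 is therefore partly set by the filter and does not say which library differs most. Library 1 led for Rasd1, a small GTPase induced by glucocorticoids, at 141 CPM against 37.1 and 22.2 CPM in libraries 2 and 3, and for Inhba, an activin subunit, at 193 against 60.4 and 61.5 CPM. In the other trios Inhba was at 217, 155 and 55.7 CPM, with library 2 nearer to library 1 than in members. Library 2 led for the interferon-induced genes Bst2, at 483 CPM against 129 and 73.7 CPM in libraries 1 and 3, and Ifit3, at 111 against 21.4 and 7.16 CPM. The other trios also had their highest Bst2 and Ifit3 in library 2, at 204 and 33.7 CPM. Library 2 further led for the epithelial genes Spink4 and Cldn4, at 501 and 92.9 CPM in members and 314 and 37.8 CPM in the other trios.

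Library 3 led for Scara5, at 105 CPM against 4.29 and 4.64 CPM in libraries 1 and 2, and for Ctgf, at 300 against 17.1 and 18.6 CPM. Scara5 showed the same order in the other trios, at 91.3 CPM in library 3 against 9.01 and 7.56 CPM. Igha, a plasma cell transcript, was at 258 CPM in members of library 3, against 4.29 and 18.6 CPM in libraries 1 and 2, while the other trios had 205, 30.9 and 173 CPM. Fabp4, a fatty acid carrier of capillary endothelium and fat, was found in library 3, at 67.6 CPM, with 0 UMIs in members of libraries 1 and 2, which allows up to 12.9 and 13.9 CPM. Since each library is 1 pool with no known group, library, depth, dissection and treatment cannot be told apart in these values.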

How the data were processed

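The authors deposited 1 matrix of unnormalized UMI counts per gene for 31053 genes and 27700 barcodes. The submitters' processing notes name Cell Ranger 6.1.1 and the builds GRCm38 and mm10, and any further filter is not given in the sources used here. Counts of the barcodes of a class were summed per library and scaled to CPM, with exact Poisson 95% intervals, and shares have Clopper-Pearson 95% intervals. Ratios were taken within a library with an offset of 5 CPM, and a gene was called past 2-fold in the same direction in all 3 libraries. A level of 0 CPM is given with the limit that 3 counts allow. Named genes are the trio genes and Ptn, the 3 most abundant members of each of 24 lists, the 25 highest and 15 lowest ratios at 20 CPM or more, the 5 leading genes per library and per leading gene, and 22 marker lists. List members past 2-fold, or above or below in every library, and examples such as Npr3, Maf, Sostdc1, Vcan, Fgf7, Fgf10 and Slit2 were also named after their values were seen. Members and lists were chosen with earlier results of these data known. Gene positions came from GENCODE M21. Doublets were scored with Scrublet in scanpy 1.11.5 (expected rate 6%) and thinning used random seed 0, with Python 3.11.15, numpy 2.4.6, scipy 1.17.1 and pandas 2.3.3. The ratio step was tested on simulated data. Some genes that the naming rule covers are not reported here.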

Additional observations from a re-analysis of the deposited data

How the results depend on the processing

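The number of members, 1250, was 726 when barcodes were thinned to 2000 UMIs before the rule, and 103 to 1211 with 1 library left out, the lowest without library 3. With a limit of 2 or 5 UMIs, Inmt and Gdf10 alone, 10% mitochondrial UMIs, 1000 genes, doublets removed or other-cell barcodes left out it was 850 to 1290. The 40 genes higher in members became 298 with UMIs pooled over libraries, 76 with an offset of 1 CPM, 14 with an offset of 20 CPM, 56 to 86 with 1 library left out (86 without library 3, 74 without library 2) and 7 against each trio singly. The 40 lower genes became 232, 95, 14, 67 to 137 (137 without library 3, 87 without library 2, 67 without library 1) and 5 in the same order. With the other trios weighted equally 37 genes were higher, 21 of them from the 40, and 55 lower, 24 of them from the 40. Among those no longer called were Penk, Ntrk2, Gata2, Prrx1, Cyp2e1, Bmp7, Tnc and Vcan. Among 600 values of 40 named genes over 15 settings 5 changed sign. With mesothelial and endothelial barcodes left out Slpi had a median log2 ratio of 0.14, Emcn -0.048 and Cyp1a1 -0.066. Against each trio singly Tnc stood at 0.069 and H19 at 0.56. Thinned to 2000 UMIs after the rule, the median log2 ratio of Igfbp5 was -2.96, of Slpi -4.05, of Tnc -3.35 and of H19 -4.54, beside -3.93, -5.03, -1.96 and -3.31 at full depth. The cause was not tested for any of these beyond what each setting changes. The alternatives that leave out other-cell barcodes or set members against each trio were added after seeing the data. No paired analysis was possible because each group is 1 library and no library number is tied to a group. With 39 and 64 members in libraries 1 and 2, a gene near 10 CPM there rests on 2 or 3 UMIs.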
